A study of Rattus norvegicus with 8 samples.

Results

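The genes described here carry glucose into the beta cell, turn it into metabolic signals, or encode receptors and a peptide that tune insulin release. They are 10 listed genes: the glucose transporter gene Slc2a2, the enzyme genes G6pc2 and Pc, the receptor genes Glp1r, Gipr, Gcgr, Ffar1, Gpr119 and Prlr, and the peptide gene Ucn3. Of these, 9 had a probe set assigned to a single gene, 1 probe set each, among 14506 genes tested, and G6pc2 was not analysed here. The rule that lists them uses function and no measured value.

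RNA came from pancreatic islets of Sprague-Dawley rat fetuses at embryonic day 19. Dams had surgery on embryonic day 18, either to restrict the growth of the fetuses (IUGR, intrauterine growth restriction) or as a sham operation, and islets were taken 1 day later. Each of 8 Affymetrix arrays held the pooled fetal islets of 1 litter, with 4 sham and 4 IUGR litters, so the litter is the replicate and differences among fetuses or between the sexes are not seen. Values are log2 expression after RMA, the authors' background correction, normalization between arrays and summary of probes.

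In a mature beta cell, glucose enters through a facilitative transporter, is phosphorylated and feeds pyruvate into mitochondria, and the ATP formed closes potassium channels and opens calcium channels. Incretin hormones from the gut act on receptors that raise cyclic AMP and so amplify the release that glucose starts, and fatty acid receptors add a signal through other G proteins. Fetal beta cells respond weakly to glucose, and several genes of this machinery gain expression as the cells mature around and after birth. Prolactin and placental lactogens act on beta cells through their common receptor and are known for beta cell growth in pregnancy.

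None of the 9 genes passed an adjusted p of 0.05 between IUGR and sham litters (limma, with Benjamini-Hochberg adjustment over all genes; the lowest was 0.244 for Pc), and 0 of 9 had an unadjusted p under 0.05. Over all genes, 0.248% passed the adjusted threshold and 26.1% had an unadjusted p under 0.05. The litters of the groups overlapped for all 9 genes, while 15.5% of all genes had 4 IUGR litters that did not overlap the 4 sham litters. IUGR means were above sham means for 7 of 9 genes, against 55.1% of all genes, and the median difference of the 9 was 0.41 on the log2 scale, against 0.04 over all genes. Another scaling of the arrays changed the count to 6 of 9, with Gpr119 turning sign, and the median to between 0.17 and 0.27. Sham replicate 4 stood apart from the other sham litters for most of these genes, so the difference of each of the 9 genes is given with and without it. In pooled islet RNA, fewer cells of a type and less RNA per cell cannot be told apart.

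Slc2a2 encodes GLUT2, the glucose transporter of rodent beta cells, which liver, kidney and gut also use (GRCr8 chromosome 2, 113537884 to 113568422). Its log2 value was 10.71, 9.53, 10.30 and 12.06 in sham replicates 1 to 4 and 11.41, 10.84, 11.54 and 12.08 in IUGR replicates 1 to 4. Sham replicates 1, 2 and 3 lay below every IUGR litter, and sham replicate 4 lay level with the highest of them. The means were 10.65 ± 1.06 in sham and 11.47 ± 0.51 in IUGR litters (SD, n = 4 each), a difference of 0.82 ± 0.51 (SE; limma adjusted p = 0.324). Without sham replicate 4 the difference was 1.29 ± 0.35 (SE; limma adjusted p = 0.111), and without sham replicate 2 it was 0.44.

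Pc encodes pyruvate carboxylase, the mitochondrial enzyme that makes oxaloacetate from pyruvate in beta cells and for gluconeogenesis in liver (chromosome 1, 211228708 to 211327792). It was at 9.80, 9.46, 9.49 and 9.03 in the sham litters and at 9.47, 9.66, 10.11 and 10.45 in the IUGR litters. IUGR replicates 3 and 4 were above all sham litters, whereas IUGR replicates 1 and 2 lay within the sham range. The difference was 0.48 ± 0.24 (SE; limma adjusted p = 0.244), from 9.45 ± 0.32 to 9.92 ± 0.44 (SD, n = 4 each). Pc was the 1 gene of the 9 with its lowest value in sham replicate 4, and without that litter it differed by 0.34. Leaving out IUGR replicate 4 gave 0.30, the lowest value among fits with 1 litter left out.

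Slc2a2 and Pc are also liver genes, and liver transcripts differed between these pools. Of 24 liver markers 23 were measured, and 22 had a higher IUGR mean. Their mean level was 8.75 to 10.60 in sham and 10.55 to 11.76 in IUGR litters, with Alb between 11.69 and 13.92 in sham and between 13.81 and 13.98 in IUGR litters. IUGR replicate 4 had the highest liver mean and also the highest Slc2a2, Pc and Gcgr. Among sham replicates 1, 2 and 3, with liver means of 10.60, 9.16 and 10.12, Slc2a2 and Pc were highest in replicate 1 and lowest in replicate 2, as the liver mean was. That order is not particular to liver. The mean of the beta cell markers described below had it too (9.92, 9.78 and 9.82), as did Glp1r and Ffar1. Sham replicate 4 had the lowest liver mean of all litters and the lowest Pc, yet its Slc2a2 was second only to IUGR replicate 4. With the liver mean as a covariate, a fit chosen after the data were examined, Pc differed by -0.16 ± 0.30 and Slc2a2 by 0.85 ± 0.88 (SE; limma adjusted p = 0.998 for both). In that fit 0 of all genes passed (limma), and the liver means of the groups barely overlap. The part of liver transcripts in the IUGR values of Slc2a2, Pc and Gcgr cannot be told apart from the groups in these 8 litters.

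Glp1r encodes the receptor for glucagon-like peptide 1, an incretin that raises cyclic AMP in beta cells (chromosome 20, 8973393 to 9011622). It was at 8.31, 7.56, 7.68 and 10.33 in sham replicates 1 to 4 and at 9.58, 8.64, 8.40 and 8.48 in IUGR replicates 1 to 4. Sham replicate 4 was the highest of all litters and IUGR replicate 1 the next, while sham replicates 1, 2 and 3 were the lowest. The difference was 0.30 ± 0.60 (SE; limma adjusted p = 0.763), with an SD of 1.28 among sham and 0.55 among IUGR litters. Without sham replicate 4 it was 0.92 ± 0.32 (SE; limma adjusted p = 0.155). Without sham replicate 2, sham replicate 3 or IUGR replicate 1 it was between 0.00 and 0.04.

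Gipr encodes the receptor for glucose-dependent insulinotropic polypeptide, the other incretin (chromosome 1, 87932316 to 87956084). Its values were 7.27, 7.73, 7.42 and 8.72 in sham litters and 8.74, 7.90, 8.36 and 8.28 in IUGR litters. All 4 IUGR litters were above sham replicates 1, 2 and 3, and only IUGR replicate 1 matched sham replicate 4. The difference was 0.53 ± 0.32 (SE; limma adjusted p = 0.312), from 7.78 ± 0.65 to 8.32 ± 0.34 (SD, n = 4 each). With sham replicate 4 left out, Gipr had the lowest adjusted p of the 9 genes, 0.087 (limma), at a difference of 0.84 ± 0.20 (SE).

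Gcgr encodes the glucagon receptor, through which glucagon raises cyclic AMP in beta cells and drives glucose output in liver (chromosome 10, 106306803 to 106314970). It was at 7.16, 7.12, 7.33 and 7.60 in the sham litters and at 7.50, 7.19, 7.79 and 8.36 in the IUGR litters. IUGR replicate 4 stood highest, and IUGR replicates 1 and 2 lay within the sham range. Gcgr differed by 0.41 ± 0.24 (SE; limma adjusted p = 0.306), by 0.50 without sham replicate 4 and by 0.19 without IUGR replicate 4. With the liver mean as a covariate it differed by 0.19 ± 0.41 (SE; limma adjusted p = 0.998, in a fit where 0 of all genes passed). Its spread differed from that of the incretin receptors: the SD was 0.22 among sham and 0.50 among IUGR litters, against 1.28 and 0.55 for Glp1r. No test of these SDs was made.

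Ffar1 encodes GPR40, a receptor for long-chain fatty acids that signals through phospholipase C and calcium (chromosome 1, 95238785 to 95239689). It was at 8.67, 7.83, 8.44 and 10.39 in sham litters and at 10.004, 9.01, 9.03 and 9.37 in IUGR litters. As with Glp1r, sham replicate 4 was highest, IUGR replicate 1 next and the other sham litters lowest. The difference was 0.52 ± 0.51 (SE; limma adjusted p = 0.528), and 1.04 ± 0.29 without sham replicate 4 (SE; limma adjusted p = 0.117). It was 0.18 without sham replicate 2 and 0.30 without IUGR replicate 1.

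Gpr119 encodes a receptor for lipid amides that raises cyclic AMP (chromosome X, 132730027 to 132736080). It was at 7.74, 7.56, 7.72 and 8.81 in sham litters and at 8.34, 7.97, 7.93 and 8.00 in IUGR litters. The IUGR litters spanned 0.41 and lay between the other sham litters and sham replicate 4. The difference was 0.10 ± 0.27 (SE; limma adjusted p = 0.821), and its sign turned after quantile normalization (-0.07), cyclic loess (-0.01) and median centring (-0.13). Without sham replicate 4 it was 0.39 ± 0.12 (SE; limma adjusted p = 0.136).

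Ucn3 encodes urocortin 3, a peptide that beta cells release and that acts on somatostatin-producing delta cells, and it is widely used as a marker of mature beta cells (chromosome 17, 71219611 to 71225904). It was at 8.15, 7.95, 8.17 and 10.05 in sham litters and at 8.47, 8.69, 7.93 and 8.04 in IUGR litters. Apart from sham replicate 4, all litters lay between 7.93 and 8.69, with IUGR replicate 3 the lowest of all and IUGR replicate 4 among the sham values. Ucn3 differed by -0.30 ± 0.45 (SE; limma adjusted p = 0.684), and by 0.19 ± 0.19 without sham replicate 4 (SE; limma adjusted p = 0.536), so the sign rested on that litter.

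Prlr encodes the prolactin receptor, which signals through JAK2 and STAT5 (chromosome 2, 60861391 to 61051883). It was at 6.09, 5.99, 5.98 and 7.74 in sham litters and at 6.49, 5.87, 5.96 and 5.96 in IUGR litters. In 6 of the 8 litters Prlr lay between 5.87 and 6.09, with sham replicate 4 and, less, IUGR replicate 1 above. Its probe set was among the dimmest 30% of genes (mean at or under 7.21), the 1 such gene of the 9, and the table gives no detection call that would tell a low value from background. Prlr differed by -0.38 ± 0.39 (SE; limma adjusted p = 0.543), and by 0.05 ± 0.16 without sham replicate 4 (SE; limma adjusted p = 0.859).

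**Figure D1:**
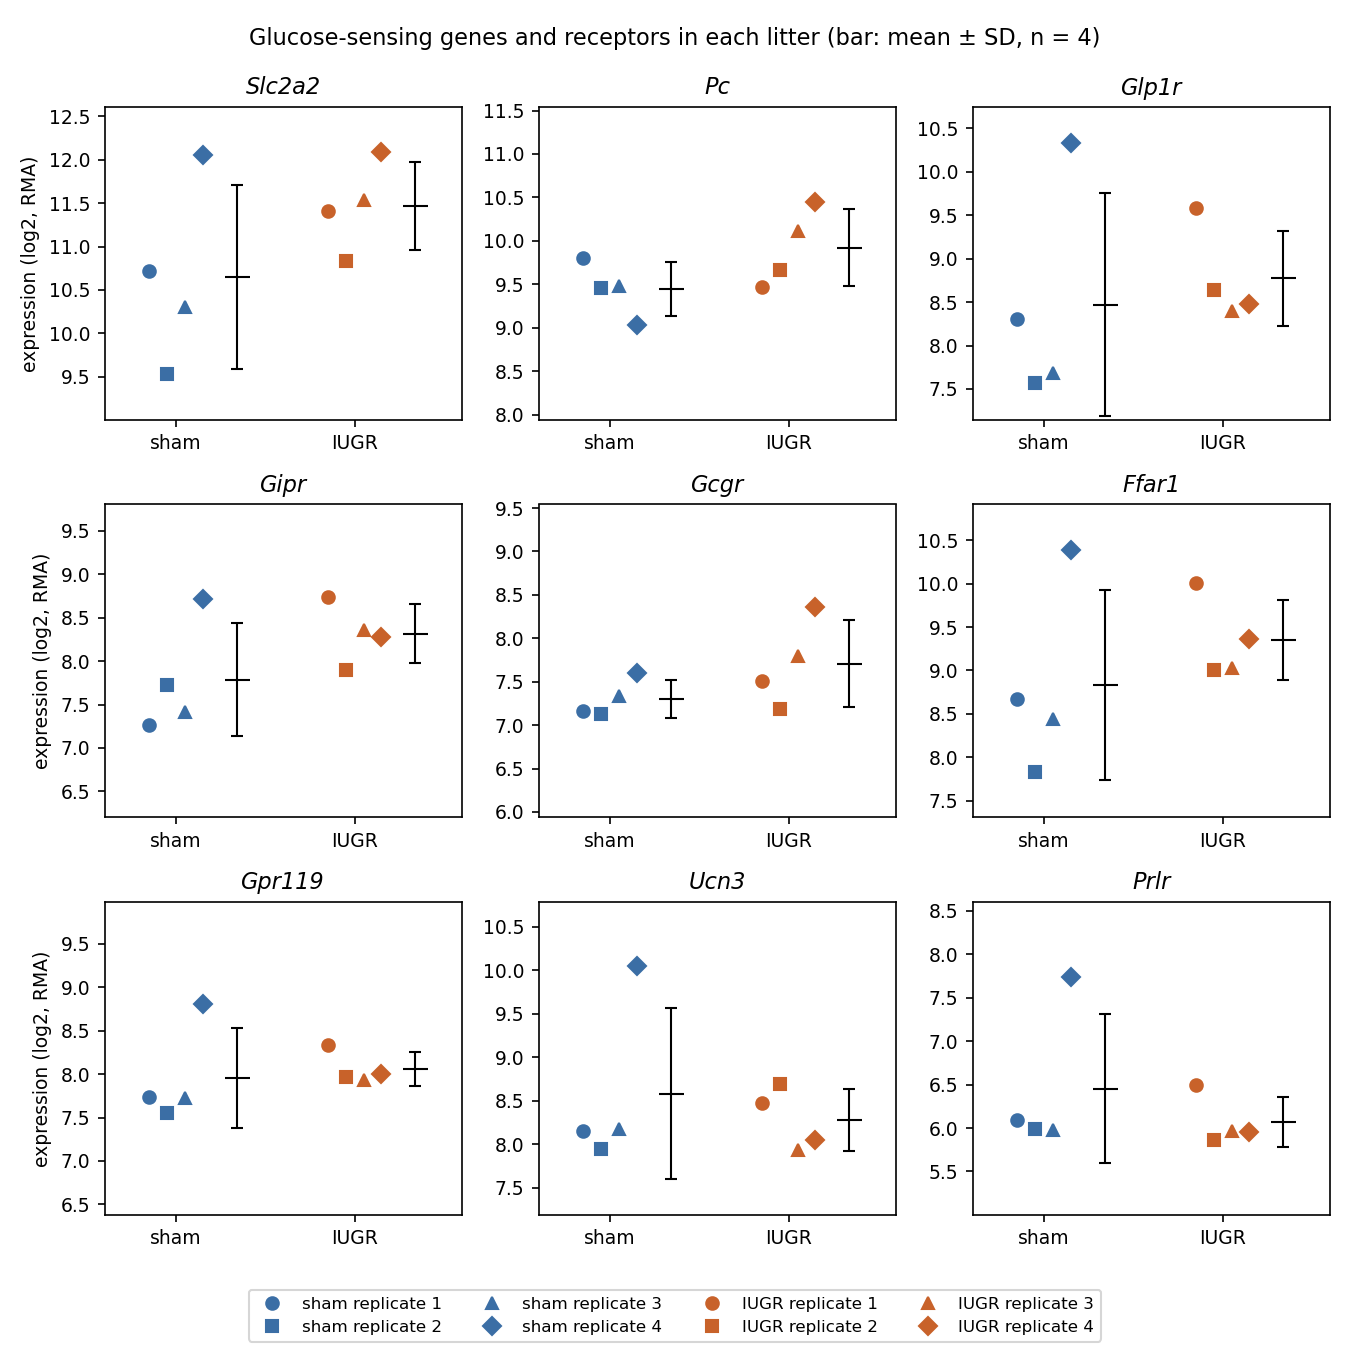
Log2 expression of each of the 9 genes in each litter, with sham litters in blue and IUGR litters in orange, a marker shape for each replicate number, and a bar for the mean ± SD (n = 4). Each vertical axis spans the same log2 range. The diamond of sham replicate 4 is the highest sham point in every panel but Pc, where it is the lowest at 9.03.

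Sham replicate 4 was the highest of the 8 litters for 5 of the 9 genes (Glp1r, Ffar1, Gpr119, Ucn3 and Prlr), against 19.9% of all genes, and among the highest 2 litters for 7 of them. Against the mean of the other 3 sham litters it was higher by 2.48 for Glp1r, 2.08 for Ffar1, 1.96 for Ucn3, 1.88 for Slc2a2, 1.72 for Prlr, 1.25 for Gipr, 1.14 for Gpr119 and 0.40 for Gcgr (log2), and for Pc, where it was the lowest litter (as for 30.8% of all genes), the value was -0.55. For Slc2a2 this was 3.67-fold on the linear scale, where the whole IUGR group differed from the whole sham group by 1.76-fold. Sham replicate 2 was the lowest of the 8 litters for 5 of the 9 genes. IUGR replicate 1 was among the highest 2 litters for 5. No share over all genes was computed for these counts or for places among the highest 2 litters, so they only describe the 9 genes.

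With sham replicate 4 left out, all 9 genes had a higher IUGR mean, against 52.0% of all genes, with a median of 0.50 against 0.01. None passed the adjusted threshold (limma; 1.08% of all genes did), and 5 of 9 had an unadjusted p under 0.05 (25.5% of all genes). In the same 5 genes, Slc2a2, Glp1r, Gipr, Ffar1 and Gpr119, the 4 IUGR litters were above the remaining 3 sham litters without overlap, which held for 14.8% of all genes. That the 5 genes vary together across litters makes this less than 5 separate observations. With array weights, which weight each array by how well it fits its group, 4 of the 9 genes passed and all 4 were higher in IUGR, as were 26.4% of all genes (limma): Gipr (0.80, adjusted p = 0.010), Slc2a2 (1.07, adjusted p = 0.015), Glp1r (0.99, adjusted p = 0.029) and Ffar1 (0.84, adjusted p = 0.034). That fit weighted sham replicate 3 at 7.82, sham replicate 4 at 0.196 and sham replicate 1 at 0.265, and called 43.8% of all genes in either direction.

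**Figure D2:**
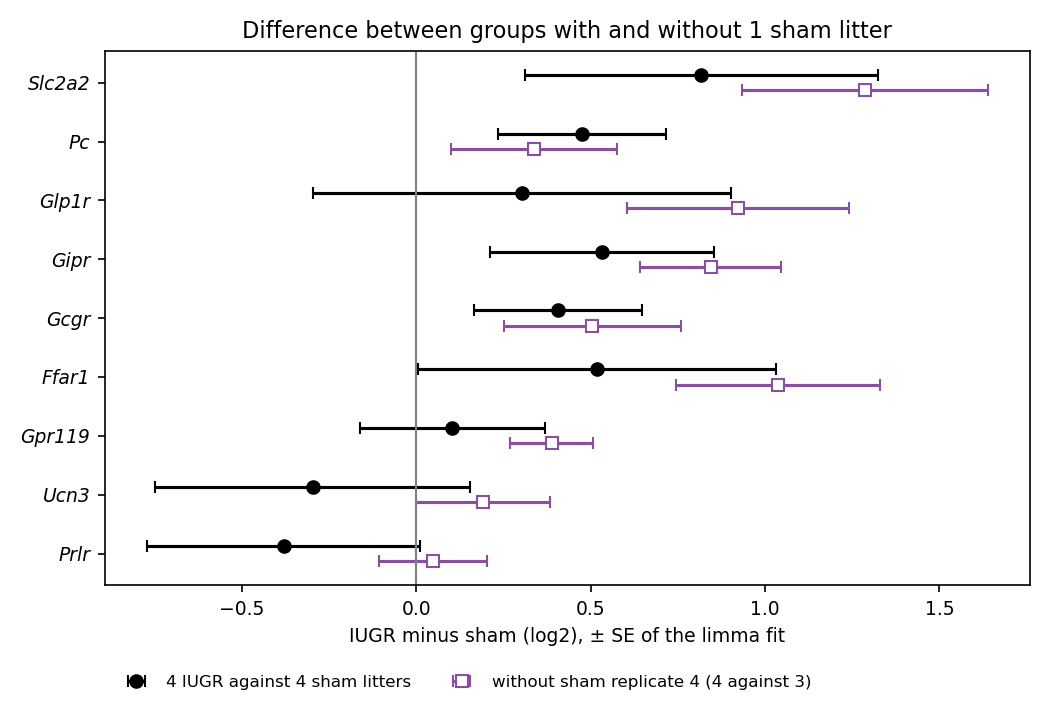
Difference between IUGR and sham litters (log2) for each gene, with bars of ± SE from the limma fit, for all 8 litters (filled circles) and without sham replicate 4 (open squares). Ucn3 and Prlr lie below 0 with all litters, at -0.30 and -0.38, and above it without that litter, and Slc2a2 goes from 0.82 to 1.29.

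Markers of beta cells and of other cells moved with the same litters. Of 28 genes of beta cell identity and maturity, 24 were measured, and sham replicate 4 was the highest litter for 18 of them. It was the highest for 19.9% of all genes. The mean of the 24 was 11.19 in that litter, 9.78 to 9.92 in sham replicates 1 to 3 and 10.24 to 10.65 in the IUGR litters, where IUGR replicate 1 was the highest. Sham replicate 4 was also the highest litter for 7 of 11 markers of other endocrine cells, Gcg (13.94) and Pyy (13.59) among them. The mean of that list was 10.001 in sham replicate 4, below IUGR replicates 1 (10.07) and 4 (10.15). Ins2 and Ins1, the insulin genes of the rat, were at 14.24 and 14.01 in sham replicate 4 and between 13.15 and 13.88 in the other litters, near the top of the scale. Sham replicate 4 also had the lowest mean of the acinar list (9.14, where sham replicates 1, 2 and 3 were at 9.9999, 10.30 and 10.50). It had the highest mean of mesenchyme and endothelium (12.03, where the next sham litter was at 11.61), and was the highest litter for 12 of those 16 markers. The part of beta cell content, or of endocrine cell content more widely, in the values of these genes was not tested apart from the covariate fit given next.

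With the mean of the beta cell list as a covariate, an alternative chosen after the data were examined, Glp1r differed by -0.14 ± 0.16, Ffar1 by 0.15 ± 0.18, Gpr119 by -0.09 ± 0.07 and Slc2a2 by 0.52 ± 0.35 (SE; limma adjusted p from 0.297 to 0.564). Pc differed by 0.58 ± 0.21, Gcgr by 0.36 ± 0.25 and Gipr by 0.33 ± 0.18 (SE; limma adjusted p from 0.091 to 0.319). In the same fit 2 of the 9 genes passed, both lower in IUGR: Prlr (-0.67 ± 0.09, limma adjusted p = 0.022) and Ucn3 (-0.62 ± 0.15, limma adjusted p = 0.045), where 13.1% of all genes passed. With sham replicate 4 left out as well, Prlr differed by -0.74 ± 0.25 and Ucn3 by -0.47 ± 0.44 (SE), with a limma adjusted p of 1.00 for both. In that fit 0 of all genes passed (limma). Without that litter the beta cell means were 9.78 to 9.92 in sham and 10.24 to 10.65 in IUGR litters. These do not overlap, so the fit cannot tell beta cell content from the groups. On this covariate sham replicate 4, at 11.19, was the litter farthest from all others.

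**Figure D3:**
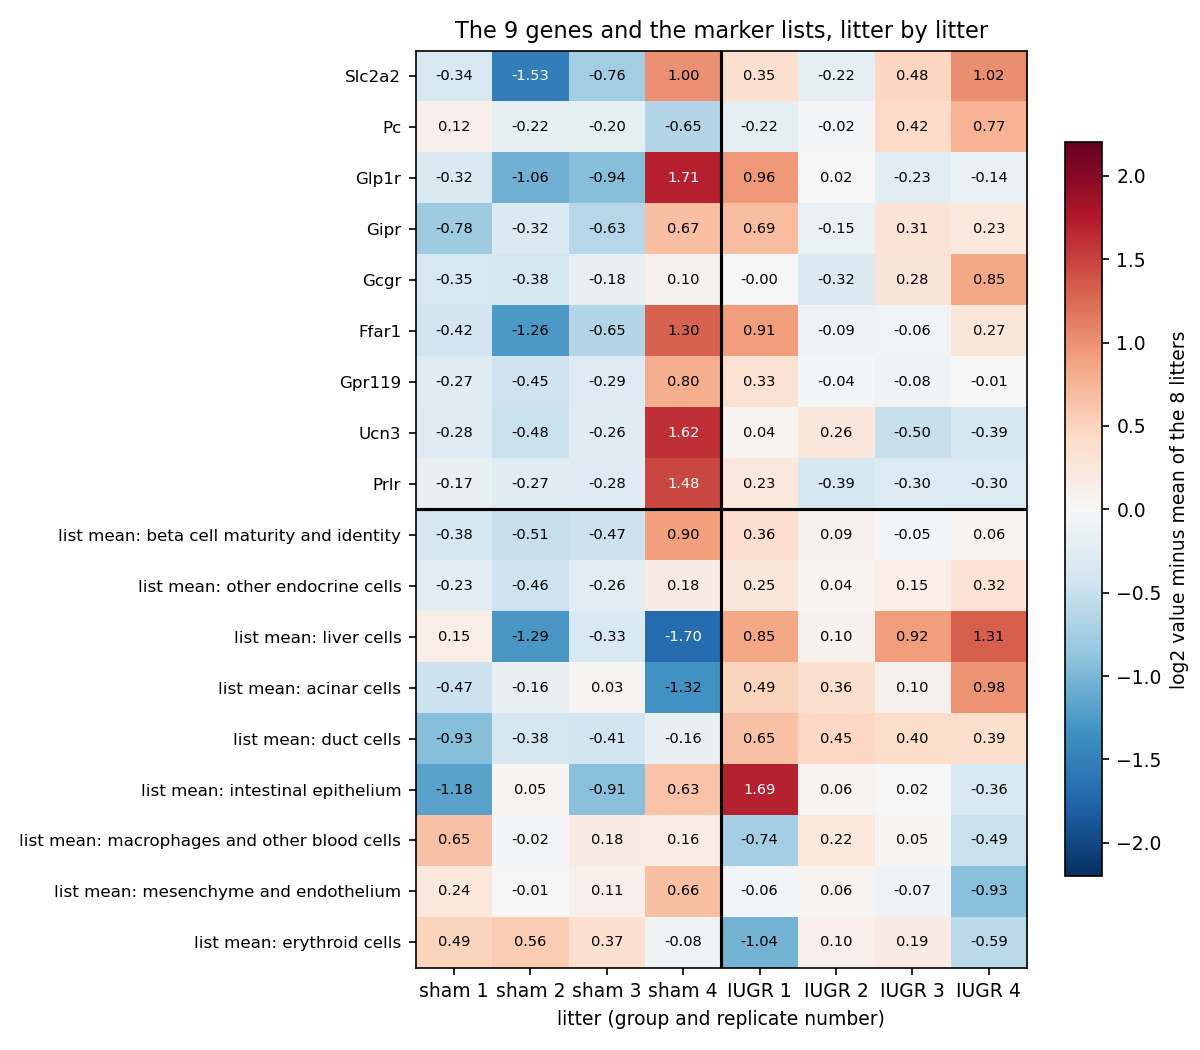
Log2 values minus the mean of the 8 litters for the 9 genes (upper rows) and for the means of 9 marker lists (lower rows), one column for each litter, with red for above and blue for below the mean. The column of sham replicate 4 is red for 8 of the 9 genes and for the beta cell list, and blue for Pc and for the liver (-1.70) and acinar (-1.32) lists.

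The genes fell into patterns that can be read across the 8 litters. Likeness was measured as the root mean square difference between values centred on each gene's mean, where a small value means a like pattern and like size of change. Glp1r and Ffar1 were the closest pair at 0.25, then Ucn3 and Prlr at 0.27 and Gipr and Gpr119 at 0.31, while Pc and Glp1r were the farthest apart at 1.10. Pc and Gcgr, both with their highest value in IUGR replicate 4, were 0.35 apart. Such distances describe 8 litters that share the swing of sham replicate 4, and carry no test.

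Upstream sequence is shown for the 2 closest pairs, since their members moved together. Each is the 250 bases before a start annotated in RefSeq on GRCr8, and capitals mark the motif letters found. Whether transcription begins at these starts in islets was not tested. The Ucn3 window runs past the gene start given above (71219611). The windows are chr20:8973143-8973392 (plus strand) for Glp1r, chr1:95239690-95239939 (minus strand) for Ffar1, chr17:71219406-71219655 (plus strand) for Ucn3 and chr2:60909409-60909658 (plus strand) for the second of 2 starts of Prlr.
Glp1r: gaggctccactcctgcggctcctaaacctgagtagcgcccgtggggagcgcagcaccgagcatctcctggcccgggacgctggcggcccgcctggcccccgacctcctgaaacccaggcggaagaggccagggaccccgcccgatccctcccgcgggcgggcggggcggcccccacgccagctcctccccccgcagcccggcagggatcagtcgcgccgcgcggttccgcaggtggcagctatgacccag
Ffar1: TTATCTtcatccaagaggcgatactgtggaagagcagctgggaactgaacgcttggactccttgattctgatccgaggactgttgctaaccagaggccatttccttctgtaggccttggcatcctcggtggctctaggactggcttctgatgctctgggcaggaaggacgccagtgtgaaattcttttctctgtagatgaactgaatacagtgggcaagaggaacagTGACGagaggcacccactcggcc
Ucn3: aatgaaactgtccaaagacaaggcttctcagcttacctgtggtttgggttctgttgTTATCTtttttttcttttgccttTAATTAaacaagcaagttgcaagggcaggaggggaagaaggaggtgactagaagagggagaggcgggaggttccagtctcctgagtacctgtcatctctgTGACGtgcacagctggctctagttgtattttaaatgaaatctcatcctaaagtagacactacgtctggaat
Prlr: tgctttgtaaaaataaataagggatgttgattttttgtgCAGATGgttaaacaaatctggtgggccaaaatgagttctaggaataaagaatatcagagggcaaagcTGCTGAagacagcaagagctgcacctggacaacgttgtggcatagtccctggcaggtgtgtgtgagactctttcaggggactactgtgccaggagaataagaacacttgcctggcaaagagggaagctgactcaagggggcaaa
The search on both strands covered the HNF1 half-site with the letters GTTAAT, the FOXA core with the letters TGTTTAC, the NEUROD site with the letters CAGATG, the homeodomain core with the letters TAATTA, the MAF core with the letters TGCTGA, the CREB half-site with the letters TGACG, the TATA box with the letters TATAAA and the GATA core with the letters AGATAA. Ffar1 and Ucn3 each held TGACG, present in 18.2% of 33469 RefSeq windows of that length, and AGATAA, present in 10.3%. Ucn3 also held TAATTA (4.86% of windows), and the Prlr window held CAGATG (14.0%) and TGCTGA (15.1%). The Glp1r window held none of these letters and was 75.6% G and C, against a median of 51.2% over all windows and 52.4%, 44.0% and 45.6% for Ffar1, Ucn3 and the second start of Prlr. The window of the first start of Prlr, not shown, held none of the letters searched and was 55.2% G and C. Of the 10 genes, 8 had a window in the table, 10 windows in all, and none held the letters searched for HNF1, FOXA or the TATA box. Those letters are uncommon in windows of that length, present in 6.45%, 3.21% and 12.9% of all windows. With so few windows their absence sets these genes apart in no way. A match in letters is a description of the window, and these members share no motif within either pair.

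Among 10159 genes that ranged over at least 0.5 across the litters, the genes closest to each of the 9 were as follows. Closest to Glp1r were Trh, which encodes thyrotropin-releasing hormone (0.06), and Scg2, which encodes a granin of secretory granules (0.12). Trh lay 1.76 above its own mean in sham replicate 4 and 0.88 above it in IUGR replicate 1, where Glp1r was at 1.71 and 0.96. Ffar1 was closest to the transcription factor gene St18 and the xanthine dehydrogenase gene Xdh (0.20 each). Gipr was closest to Chgb, which encodes chromogranin B (0.17), and Sgsm1 (0.18). Slc2a2 was closest to Prox1, a transcription factor gene of pancreas and liver (0.19), and Reln (0.28).

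Gpr119 was closest to Foxo1, a transcription factor gene of insulin signalling (0.08), and Amigo2 (0.08). Ucn3 was closest to Dcx, which encodes a microtubule protein of neurons (0.18), and the sodium channel gene Scn3a (0.19). Prlr was closest to Zfp36 (0.13) and Klf4 (0.17), both genes induced early after stimulation of many cell types. Zfp36 and Klf4 stood 1.29 and 1.41 above their own means in sham replicate 4, where Prlr stood 1.48 above. Pc was closest to Eva1a (0.10) and Pop1 (0.12). Gcgr was closest to Cyp17a1, a steroid hydroxylase gene (0.08), and Khk, which encodes the fructose kinase ketohexokinase (0.09).

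Of 48 other genes of glucose entry and metabolism, 45 were measured, and 39 had a higher IUGR mean. The median difference was 0.28, 0 passed the adjusted threshold (limma), and 15 had an unadjusted p under 0.05, all of them higher, where 15.4% of all genes had such a p and a higher IUGR mean. In 13 of the 45 the IUGR litters lay above the sham litters without overlap, which held for 1451 of the 14506 genes. The median was 0.13 after quantile normalization and 0.05 after median centring, a scaling that moved the median of all genes from 0.04 to -0.19 and left 23 of the 45 with a higher IUGR mean. This list holds genes that liver also uses, and 22 of 23 liver markers had a higher IUGR mean. Among such genes of the list, Gpd1 differed by 1.20, whereas Pck1 and G6pc1 each differed by -0.22. The part of liver transcripts in the values of the list was not tested. Hk2, a hexokinase gene, was at 7.77, 7.46, 7.66 and 7.51 in sham and 8.59, 7.90, 8.46 and 8.48 in IUGR litters, a difference of 0.76 ± 0.16 without overlap (SE; limma adjusted p = 0.079). Sham replicate 4 lay within the range of the remaining sham litters for Hk2, unlike for Slc2a2. Glud1, which encodes glutamate dehydrogenase, differed by 0.60 (adjusted p = 0.096), the phosphofructokinase gene Pfkl by 0.59 (adjusted p = 0.120) and Pdhb, a subunit of pyruvate dehydrogenase, by 0.49 (adjusted p = 0.126).

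Among other receptors of islet cells, 11 of 32 measured had a higher IUGR mean, with a median of -0.11 and 0 past the adjusted threshold (limma), and 9 had an unadjusted p under 0.05, where 26.1% of all genes did. Without sham replicate 4, 16 of the 32 were higher, with a median of 0.0020, and the median was -0.34 after median centring and 0.07 with array weights. Gpr39, a zinc-sensing receptor gene, was at 7.63, 7.60, 7.65 and 7.89 in sham and 8.53, 8.53, 8.73 and 9.22 in IUGR litters. It differed by 1.06 ± 0.16 without overlap (SE; limma adjusted p = 0.052), and passed without sham replicate 4 at 1.12 (adjusted p = 0.045) and without sham replicate 1 (adjusted p = 0.014). Over all alternatives its limma adjusted p ran from 0.0014 with array weights to 0.226 with the replicate block, and it was 0.142 after quantile normalization and 0.159 and 0.140 without sham replicates 2 and 3. The receptors for vasoactive intestinal peptide, which raise cyclic AMP like the incretin receptors, differed by 0.80 ± 0.13 for Vipr2 (limma adjusted p = 0.054) and 0.95 ± 0.24 for Vipr1 (limma adjusted p = 0.104). Vipr2 was at 7.46 to 7.95 in sham and 8.35 to 8.60 in IUGR litters, and Vipr1 at 7.24 to 7.83 and 8.04 to 9.11, with no overlap for either. The short-chain fatty acid receptor gene Ffar2 differed by 0.67 (adjusted p = 0.074), also without overlap. Adra2a, the adrenergic receptor gene that restrains insulin release, was at 10.30 in sham replicate 4 and at 8.92 to 9.39 in every other litter, and differed by -0.15 ± 0.29 (SE; limma adjusted p = 0.764), or 0.17 without sham replicate 4. Without sham replicate 1, where 2738 of all 14506 genes passed (limma), 12 of 26 named pathway genes passed, among them Vipr2 (adjusted p = 0.0067), Ffar2 (0.021), Hk2 (0.024), Glud1 (0.030) and Pfkl (0.036). Most of the 26 were named for their low p in these same data. Their share is therefore raised by the choice and cannot be set against that of all genes.

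Downstream of the receptors, 21 of 34 genes of G proteins, cyclic AMP and calcium signalling had a higher IUGR mean, with a median of 0.08 that was -0.03 after quantile normalization and -0.15 after median centring. None passed (limma), and 5 had an unadjusted p under 0.05, against 26.1% of all genes. Prkar1b, a regulatory subunit of protein kinase A, was at 8.84, 8.81, 9.04 and 9.47 in sham and at 10.17, 9.80, 9.79 and 10.22 in IUGR litters, a difference of 0.96 ± 0.18 without overlap (SE; limma adjusted p = 0.069). Without sham replicate 4 it was 1.10 and passed (limma adjusted p = 0.032), as it did without sham replicate 1 (adjusted p = 0.024). Its adjusted p was 0.193 and 0.161 without sham replicates 2 and 3, 0.151 after quantile normalization and 0.226 with the replicate block. The phosphodiesterase genes Pde8b and Pde4d, whose products break down cyclic AMP, differed by 0.93 and 0.50 (adjusted p = 0.120 and 0.113), and the G protein gene Gna11 by 0.45 (adjusted p = 0.148). Rapgef4, which encodes the cyclic AMP sensor EPAC2, was at 8.69 in sham replicate 4 and 7.17 to 7.97 elsewhere, with a difference of 0.07 ± 0.32 (SE; limma adjusted p = 0.904), or 0.42 without sham replicate 4 (limma adjusted p = 0.147). Adcy8, an adenylyl cyclase gene among the dimmest 30% (mean 6.17), differed by -0.34 ± 0.13 (SE; limma adjusted p = 0.149).

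Of 13 ligand genes and genes of their processing, 5 had a higher IUGR mean and 0 passed (limma), with a median of -0.03 that was 0.10 after quantile normalization and -0.26 after median centring, and 3 had an unadjusted p under 0.05 (26.1% of all genes did). Gcg, whose product is processed to glucagon in alpha cells and to glucagon-like peptide 1 in gut cells, differed by 0.08 ± 0.13 (SE; limma adjusted p = 0.724), or 0.20 without sham replicate 4. It was at 13.33 to 13.94 in sham and 13.58 to 13.72 in IUGR litters. Dpp4, the peptidase that inactivates the incretins, was at 9.63 to 9.84 in sham and 9.996 to 10.89 in IUGR litters, a difference of 0.63 ± 0.18 (SE; limma adjusted p = 0.124). The lactogen genes Prl3b1 and Prl differed by -0.57 and -0.42 (adjusted p = 0.138 and 0.148), and Ucn2 by -0.24 (adjusted p = 0.223), all at low signal.

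Downstream of Prlr and the related growth hormone receptor, 13 of 19 genes had a higher IUGR mean, with a median of 0.16 that was -0.01 after quantile normalization and -0.07 after median centring. None passed (limma), and 3 had an unadjusted p under 0.05, again against 26.1% of all genes. Ghr, the growth hormone receptor gene, was at 11.44, 11.27, 11.27 and 11.56 in sham and 11.92, 11.63, 11.77 and 11.79 in IUGR litters, a difference of 0.39 ± 0.10 without overlap (SE; limma adjusted p = 0.109). Ccnd2, a cyclin gene of beta cell division, differed by 0.41 ± 0.09 (SE; limma adjusted p = 0.080) and Socs1, an inhibitor of JAK kinases, by 0.27 (adjusted p = 0.137), both without overlap. The STAT factor gene Stat3 differed by 0.23 (adjusted p = 0.327). Socs2 and Tph1, genes that prolactin induces in adult islets in pregnancy, differed by -0.32 (adjusted p = 0.331) and 0.28 (adjusted p = 0.397). Tph1, the gene for serotonin synthesis, was at 8.09 in IUGR replicate 1 and at 6.91 to 7.44 in the other litters.

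**Figure D4:**
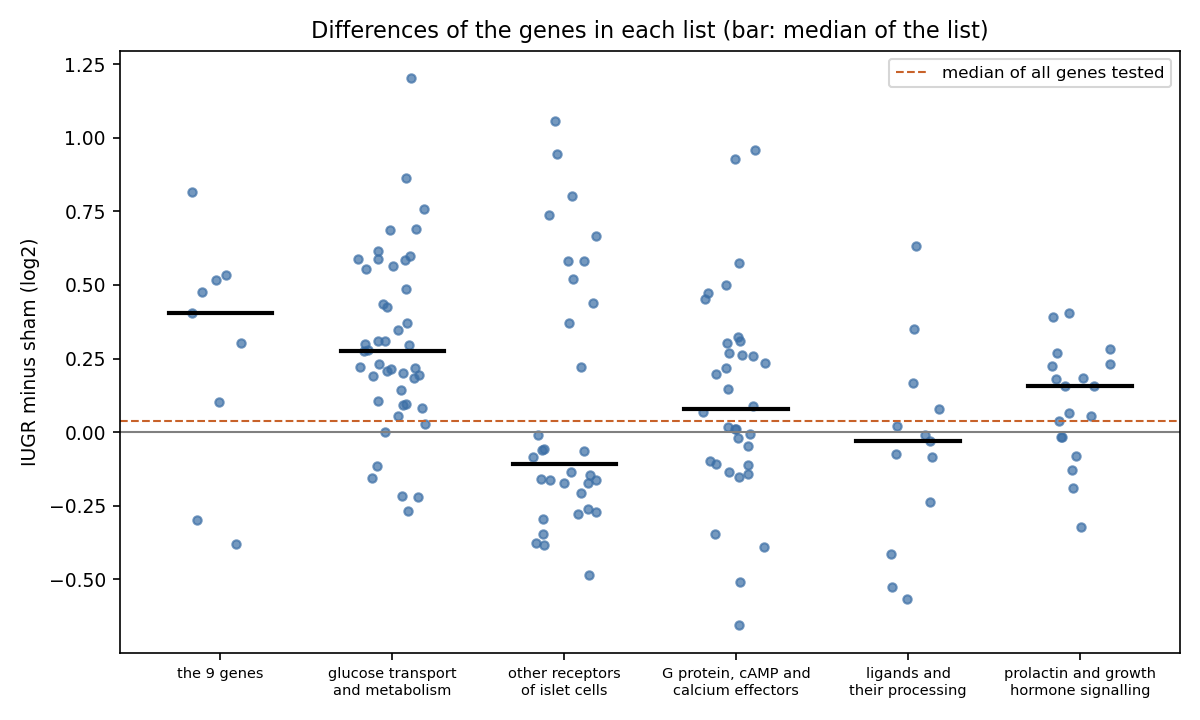
Difference between IUGR and sham litters (log2) for every measured gene of each list, 1 point for each gene, with a black bar at the list's median and a dashed line at the median of all genes (0.04). The points of glucose transport and metabolism lie mostly above 0 with a median of 0.28, and those of the other receptors lie on both sides with a median of -0.11.

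Other cells in the pools differed between the groups as well. Duct markers had a higher IUGR mean for 13 of 13 measured, 1 of them past the threshold (limma), with list means of 9.34 to 10.12 in sham and 10.67 to 10.93 in IUGR litters. Acinar markers had a higher IUGR mean for 19 of 20, intestinal epithelium markers for 6 of 8, macrophage and blood markers for 1 of 16, mesenchyme and endothelium markers for 0 of 16, and erythroid markers for 0 of 8. Markers of other endocrine cells had a higher IUGR mean for 10 of 11, at list means of 9.37 to 10.001 in sham and 9.86 to 10.15 in IUGR litters, but for 5 of 11 after median centring, with a median of -0.03. One of them, Ttr, is also a liver gene and differed by 1.81. Several genes named above, such as Vipr1, Gipr and Dpp4, are also known in duct, gut or immune cells, and the part of those cells in their values was not tested. Insulin and glucagon transcripts, which define islets, were near the top of every array: the lowest values in any litter were 13.15 for Ins1, 13.67 for Ins2 and 13.33 for Gcg, where arrays peaked at 14.03 to 14.24. The acinar protease gene Ctrb1 was also near the top in the same pools, at 13.08 to 14.06.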

How the data were processed

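The deposited values are on the log2 scale, and the authors used RMA on them per the submitters' processing notes, with no version given in the sources used here. Of 29214 probe sets, 15310 carried 1 gene in the platform annotation, 323 several and 13581 none; a current RefSeq identifier (GRCr8) was found for 15279 of the first kind. The brightest probe set was kept for each gene, leaving 14506 genes. Precision is set by the number of arrays, since arrays have no depth. IUGR was compared with sham in limma 3.58.1 (R 4.3.3; lmFit, eBayes, 8.21 total degrees of freedom), two-sided, with Benjamini-Hochberg adjustment over all genes at 0.05. Each litter is 1 pool of 1 dam. The code was tested on simulated data. Alternatives were quantile normalization, cyclic loess, median centring, array weights, leaving out the dimmest 30% of genes, a robust prior with a trend, a replicate block, other uses of probe sets and leaving out each litter; covariate fits were chosen after the data were examined. Genes and lists were chosen with earlier results of these data known. Named genes were the 10 listed, the 4 of lowest p in each of 5 pathway lists, 7 fixed by function, the 3 brightest of each marker list and the 2 genes most alike to each. Figures used matplotlib 3.10.9.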

Additional observations from a re-analysis of the deposited data

Results flagged for a closer look

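Among 18 sets of 4 litters (9 genes in 2 groups), 5 had 1 litter far from the rest by Dixon's test, where chance flags about 1 in 20 and 7.5% of such sets over all genes met the same test. The genes vary together across litters, so these are not 5 separate observations. Over all genes, sham replicate 4 was the litter so set apart within the sham group for 5.58%. In sham replicate 4, Prlr (7.74), Ucn3 (10.05) and Gpr119 (8.81) lay 1.64, 1.88 and 1.07 above the next sham litter. In IUGR replicate 1, Prlr (6.49) and Gpr119 (8.34) lay 0.53 and 0.34 above the next IUGR litter. The same 2 litters had the highest means of the beta cell list in their groups (11.19 and 10.65). They also had the highest means of the duct list (10.12 and 10.93) and of the intestinal epithelium list (8.86 and 9.92). The part of any of these cells in the flagged values was not tested.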

How the results depend on the processing

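Of the 9 genes, 0 passed with all litters, in each fit with 1 litter left out (0 to 0), after each scaling, without dim genes, with the robust prior and under both uses of probe sets; 4 passed with array weights and 2 with the beta cell mean as a covariate. The median difference of the 9, 0.41, ran from 0.18 to 0.56 with 1 litter left out, and was -0.21 with the beta cell covariate and sham replicate 4 left out. Litters of the same replicate number did not deviate together (correlations of deviations from -0.43 to 0.10). Such correlations cannot tell whether those litters were handled as pairs. With the replicate block the median was again 0.41, with 0 of the 9 and 0 of all genes passing. Signs turned for several genes, and the cause was not tested. After quantile normalization Gpr119 was -0.071 and Rapgef4 -0.044, after cyclic loess Gpr119 was -0.0057, and after median centring Gpr119 was -0.13, Rapgef4 -0.16, Gcg -0.15 and Stat3 -0.0051. With array weights Ucn3 was 0.13, Prlr 0.020, Adra2a 0.25 and Socs2 0.073. With 1 litter left out, Gpr119 ran from -0.030 to 0.39, Ucn3 from -0.51 to 0.19, Prlr from -0.54 to 0.048, Adra2a from -0.30 to 0.17, Rapgef4 from -0.089 to 0.42 and Gcg from -0.0015 to 0.20. With the liver mean as a covariate Pc was -0.16, Ucn3 0.81 and Prlr 0.38. With the beta cell mean Glp1r was -0.14 and Gpr119 -0.091, and with sham replicate 4 also left out Glp1r was -0.95, Ffar1 -0.50 and Gpr119 -0.21.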
